A study of Homo sapiens with 2 samples.

Results

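The genes described here were ATF4 and 9 genes of the amino acid and stress response that it controls, namely ATF3, DDIT3, TRIB3, ASNS, CHAC1, SESN2, PSAT1, PHGDH and DDIT4. They were taken by name, with Ensembl identifiers matched to symbols. All 10 were found among the 60623 gene entries of the deposited tables, and all 10 reached the minimum of 10 counts summed over the libraries, as did 20431 entries in all. RNA sequencing was performed in HepG2 cells, a human hepatocellular carcinoma line recorded as wild type, in 2 groups with 1 library each. Both groups received 1 mM FFA, a mixture of oleic and palmitic acid bound to albumin, for 24 h to induce steatosis. The second group, FFA + 9-cis-RA, also received 10 μM 9-cis-retinoic acid, a ligand of the RXR and RAR nuclear receptors. The methods of the paper give 24 h of retinoid after FFA, whereas its results describe co-treatment. The order, and any difference in total time between the groups, is therefore uncertain. Cells without FFA were not analysed here, so every value is that of lipid-loaded cells.

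ATF4 is a basic leucine zipper (bZIP) transcription factor at the centre of the integrated stress response. Kinases that sense amino acid shortage, misfolded protein, heme shortage or double-stranded RNA phosphorylate the translation factor eIF2, which lowers protein synthesis in general but raises translation of the ATF4 mRNA through short upstream reading frames. ATF4 protein then binds C/EBP-ATF response elements and raises genes for amino acid synthesis, uptake and tRNA charging, together with feedback inhibitors and death-promoting factors. Because much of its control is translational, the ATF4 mRNA level is not a measure of ATF4 protein, and no protein was measured in these libraries.

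The FFA library held 60821539 fragment counts and the FFA + 9-cis-RA library 57669670, which sets the precision of every value below. With 1 library per group there was no replicate check, so no p-value or SD is given. Each log2 fold change (FFA + 9-cis-RA against FFA, from size-factor normalized counts plus a pseudocount of 1) has an exact 95% interval that covers counting error only and compares these 2 libraries, not the treatments. In bulk RNA, fewer cells that express a gene and less of its RNA per cell cannot be told apart. The hepatocyte markers ALB (186609 and 112866 counts), AFP, APOA1, APOB and SERPINA1 were abundant in both libraries, while TTR had 341 and 278 counts. Of the 10 hepatocyte markers, 4 had an interval above 0 and 6 below 0, from -0.99 for AFP and -0.70 for ALB to 0.84 for FGB. Among all genes compared, 22.5% had an interval above 0 and 25.7% one below 0. For genes with 1000 counts or more in total, the shares were 34.4% and 34.7%. Among markers of other liver cell types, PTPRC had 0 counts in both libraries and COL1A1 had 1 and 2, whereas the biliary markers SOX9 (12132 and 11146 counts) and KRT19 (2301 and 1663) were well counted. The whole list of 14 summed to 16005 counts in FFA and 13847 in FFA + 9-cis-RA, mostly from SOX9, KRT19 and ACTA2. Of its 12 genes compared, 1 had an interval above 0 and 5 below 0, against 22.5% and 25.7% of all genes compared. The part of this list in any result was not tested. The retinoid response genes CYP26A1 (4 and 709 counts), RARB (6 and 46 counts) and DHRS3 (1126 and 1999 counts) each had more counts under the FFA + 9-cis-RA label.

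Promoter sequences were searched for the core of the C/EBP-ATF response element, TGATGNAA, because this is the element through which ATF4 acts. RefSeq promoters (GRCh38.p14, 250 bases before to 50 after each annotated start) were matched for all 10 genes, as 16 windows. On either strand, 3 windows held the core, 1 each of ATF3, ASNS and CHAC1. Stretches of 30 bases around the 3 matches are shown in the sense of the gene, with the core in capitals (CHAC1 holds it on the opposite strand, so its capitals read as the reverse complement).

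ATF3, chr1:212565205-212565234, + strand: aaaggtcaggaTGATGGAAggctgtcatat
ASNS, chr7:97872458-97872487, - strand: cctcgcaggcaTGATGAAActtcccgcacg
CHAC1, chr15:40953251-40953280, + strand: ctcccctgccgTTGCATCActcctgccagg

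The core began 191 bases before the annotated start in the ATF3 window and 68 bases before it in the ASNS window. In the CHAC1 window the match lay between 209 and 202 bases before the start. These starts are those of RefSeq. The counted entries of ASNS and CHAC1 begin farther upstream, so these matches lie inside the gene bounds given below. Over all 35116 promoter windows, 3.62% held TGATGNAA. The palindromic cAMP response element TGACGTCA was found in 1.85% of all windows and in none of the 16. A match is a description of letters and does not show binding, and windows without a match may hold elements outside these 300 bases.

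With size-factor scaling, ATF4 transcripts were at the same level in both libraries within counting error. ATF4 (ENSG00000128272, chromosome 22, 39519695 to 39522685) had 40678 counts in FFA and 39858 in FFA + 9-cis-RA. Its log2 fold change was -0.0017, with an interval from -0.022 to 0.018, so no difference was detectable at this depth on this scaling. Scaling by total counts put it at 0.047, and removal of the trend on gene length put it at 0.074. Removal of the trend on mean expression put it at 0.065. Under each of these alternatives its counting interval lay above 0, so the absence of a difference depends on the scaling. Expressed per length, ATF4 was the most abundant of the 9 genes whose levels can be compared, with ASNS left aside for its uncounted exons, at 16026 and 16007 normalized counts per kilobase of exon, and it ranked 103rd and 100th among all gene entries.

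**Figure D1:**
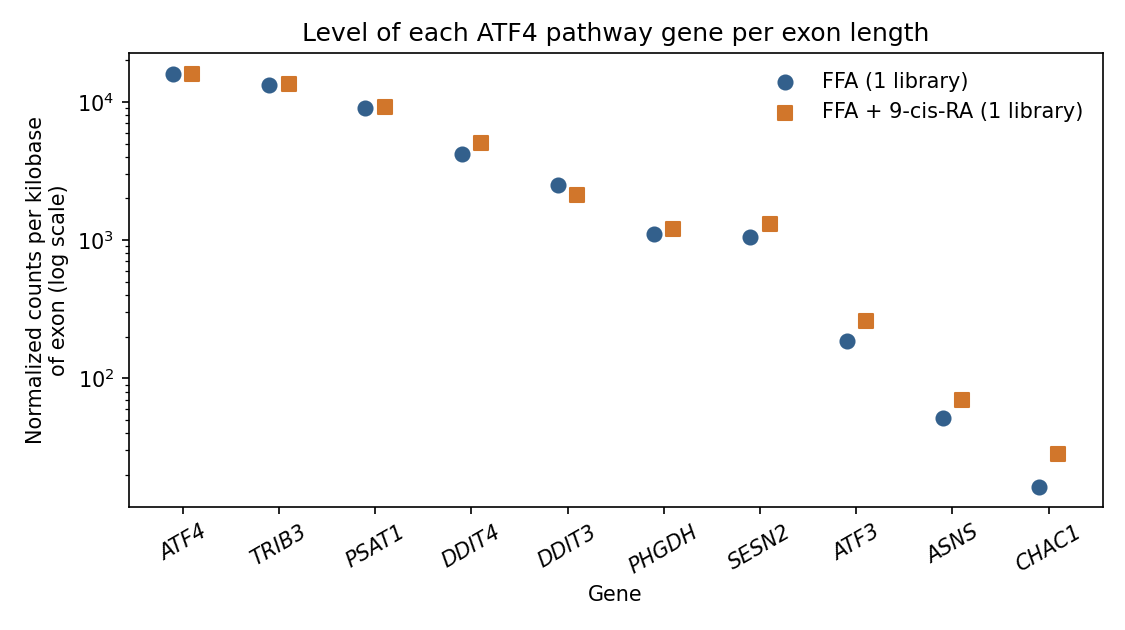
Level of each of the 10 genes in the 1 FFA library (circles) and the 1 FFA + 9-cis-RA library (squares), as normalized counts per kilobase of exon on a log scale, ordered by the FFA level. Levels ran from 16026 for ATF4 to 16.4 for CHAC1 in FFA, and the gap between genes was far wider than the gap between libraries. The ASNS level is not comparable with the others, since 49.3% of its exonic bases are shared and not counted.

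Transcripts of the 2 bZIP factors downstream of ATF4 went in opposite directions. DDIT3, which encodes CHOP, a death-promoting partner of C/EBP factors, had 3300 counts in FFA and 2767 in FFA + 9-cis-RA. Its log2 fold change of -0.23 (95% interval -0.30 to -0.15) was the lowest of the 10 and the only one whose interval lay below 0. With the trend on gene length removed, DDIT3 was at -0.11, outside that interval. ATF3, an early stress factor that is itself induced by ATF4, had 759 and 1033 counts. Its log2 fold change was 0.47 (95% interval 0.34 to 0.61), a 1.39-fold higher value in FFA + 9-cis-RA. Among the 10298 well-counted genes, those with 1000 counts or more in total, 29.1% had a larger absolute log2 fold change than DDIT3 and 6.95% a larger one than ATF3. DDIT3 lies on chromosome 12 (57516588 to 57521737, - strand) and ATF3 on chromosome 1 (212565334 to 212620777, + strand). Exons of MARS1 on the opposite strand cover 27.2% of the exonic bases of DDIT3 and 33.5% of its coding bases. MARS1 itself had 12556 and 15705 counts and was at 0.35. The authors counted fragments by strand, and any effect of wrong-strand reads on the DDIT3 value was not tested. On the same strand, the entry ENSG00000285133 (0 counts in both libraries) covers 8.03% of the exonic bases of DDIT3 and none of its coding bases, and fragments in both were not counted.

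The feedback inhibitor TRIB3 was nearly level between the libraries at a very high count. TRIB3, a pseudokinase that binds ATF4 and AKT and restrains both, had 40519 counts in FFA and 40605 in FFA + 9-cis-RA. Its log2 fold change was 0.031 (95% interval 0.011 to 0.051), and 88.0% of the well-counted genes had a larger absolute value. Removal of the trend on mean expression put TRIB3 at 0.098, outside that interval. Per length it was second to ATF4, at 13245 and 13530 normalized counts per kilobase. TRIB3 lies on chromosome 20, 362835 to 397559. DDIT3, which together with ATF4 drives TRIB3, was lower while TRIB3 was not. CHOP protein was not measured, and a link between these values was not tested.

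CHAC1 lay at the other end of the range, with the highest log2 fold change and by far the fewest counts. CHAC1 encodes an enzyme that degrades glutathione and is often used as a marker of the ATF4 and CHOP branch. It had 34 counts in FFA and 57 in FFA + 9-cis-RA, which put its log2 fold change at 0.76 (95% interval 0.14 to 1.43). The interval ran from near 0 to well past 1, so the size of the difference was poorly measured. No other gene shares its exons on chromosome 15 (40952962 to 40956512), and its level of 16.4 and 28.1 normalized counts per kilobase placed it 16493rd and 14650th among all entries. CHAC1 and TRIB3 are both used as markers of ATF4 activity, and in these cells TRIB3 was among the most abundant transcripts while CHAC1 was close to absent.

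**Figure D2:**
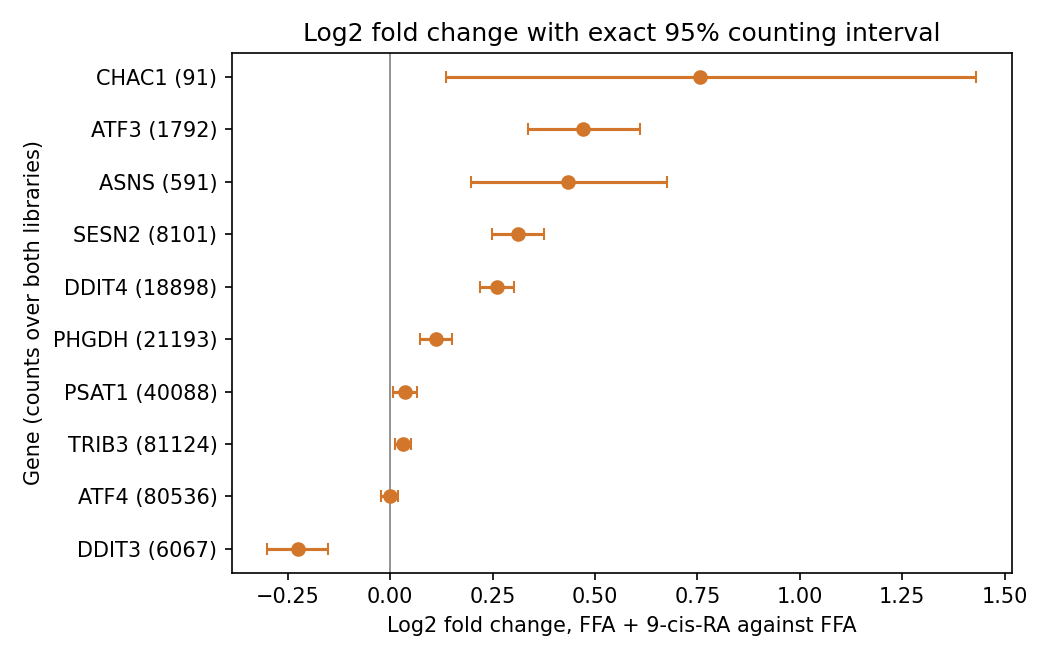
Log2 fold change of each of the 10 genes (points) with its exact 95% counting interval (bars), ordered by value, with the counts over both libraries in parentheses. The interval of DDIT3 lies below 0, that of ATF4 includes 0, and the other 8 lie above 0, with the widest for CHAC1 (0.14 to 1.43).

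The genes of amino acid synthesis had small or uncertain differences. PSAT1 and PHGDH encode enzymes of serine synthesis from a glycolytic intermediate. PSAT1 (chromosome 9, 78297125 to 78330093) had 19987 and 20101 counts, which put its log2 fold change at 0.036 (95% interval 0.0075 to 0.064). PHGDH (chromosome 1, 119648411 to 119744226) had 10285 and 10908 counts, which put its log2 fold change at 0.11 (95% interval 0.073 to 0.15). Both were thus within 1.1-fold of the FFA library with size-factor scaling. Scaling by total counts put PHGDH at 0.16, and removal of the trend on gene length put PSAT1 at 0.12, each outside its interval. ASNS encodes asparagine synthetase and is among the best-known ATF4 targets. It had 254 counts in FFA and 337 in FFA + 9-cis-RA, which put its log2 fold change at 0.43 (95% interval 0.20 to 0.68).

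The ASNS count covers only a part of its transcript. ASNS lies on chromosome 7 (97851677 to 97872542, - strand). The entry ENSG00000284707 shares that strand and covers 49.3% of the exonic length of ASNS, including 96.1% of its coding bases in the GENCODE v29 annotation. Fragments that overlap both entries were not counted, so the ASNS value rests on the remaining exonic bases and its level cannot be compared with those of the other genes. ENSG00000284707 itself had 105 and 113 counts. The overlap is the same in both libraries, and its effect on the log2 fold change was not tested.

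The 2 inhibitors of the growth kinase mTORC1 were both higher in FFA + 9-cis-RA. SESN2, a leucine sensor and stress-induced inhibitor, had 3652 counts in FFA and 4449 in FFA + 9-cis-RA, which put its log2 fold change at 0.31 (95% interval 0.25 to 0.38). DDIT4, also known as REDD1, which is induced by hypoxia and glucocorticoids as well as by ATF4, had 8690 and 10208 counts, which put its log2 fold change at 0.26 (95% interval 0.22 to 0.30). These were 1.24-fold and 1.20-fold higher values. Of the well-counted genes, 6.69% stood above SESN2 and 10.4% above DDIT4. SESN2 lies on chromosome 1 (28259518 to 28282491) and DDIT4 on chromosome 10 (72273924 to 72276036).

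Levels per length, leaving aside ASNS, kept nearly the same order in the 2 libraries, with ATF4 first, then TRIB3, PSAT1, DDIT4 and DDIT3, and ATF3 and CHAC1 last. The exception was the pair of PHGDH and SESN2. In FFA, PHGDH stood at 1105 normalized counts per kilobase (95% Poisson interval 1084 to 1127) and SESN2 at 1045 (1011 to 1079). In FFA + 9-cis-RA, SESN2 was ahead at 1297 (1260 to 1336), against 1195 (1173 to 1217) for PHGDH. The length used is that of all annotated exons of a gene, which lowers the value of genes with many alternative exons such as PHGDH with 9217 exonic bases.

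Relative to ATF4 itself, 8 of the 9 downstream genes were higher in FFA + 9-cis-RA and DDIT3 alone was lower. This comparison does not depend on how the libraries are scaled, but it does depend on removal of the gene-wise trends. With the length trend removed, PHGDH was at 0.082 and TRIB3 at 0.088, against 0.074 for ATF4. With the expression trend removed, PSAT1 was at 0.084, against 0.065 for ATF4. Intervals of the ratios were not computed for these alternatives. In the main setting ATF4 was at -0.0017, so the comparison largely repeats the log2 fold changes given above. Of all genes compared, 47.9% had a log2 fold change above that of ATF4, and of the well-counted genes 51.5%. The log2 change of the ratio was only 0.032 for TRIB3 and 0.038 for PSAT1. Per length, TRIB3 was at 0.83 of ATF4 in FFA and 0.85 in FFA + 9-cis-RA. DDIT4 went from 0.26 to 0.31 of ATF4 and SESN2 from 0.065 to 0.081. DDIT3 went from 0.16 to 0.13, a log2 change of the ratio of -0.22 (95% interval -0.30 to -0.15, counting error only). The ratio for ATF3 had a log2 change of 0.47 (0.34 to 0.61).

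As a group the 10 genes had a median log2 fold change of 0.19, against -0.020 over all 20431 genes compared. Without CHAC1 and ASNS, the 2 members under 1000 counts in total, the median was 0.074, against 0.0062 over the 10298 well-counted genes. The counting interval lay above 0 for 8 of 10 members, against 22.5% of all genes compared. It lay below 0 for 1 member, against 25.7% of all genes. An interval is more likely to leave out 0 where counts are high. Among the well-counted genes, 34.4% had an interval above 0 and 34.7% one below 0, while of the 8 members at that depth 6 were above and 1 was below.

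No member reached the fold threshold of 1 on the log2 scale that the study uses. Of all genes compared, 3.37% were above 1 and 4.90% below -1. With a smaller threshold of 0.5, 1 member, CHAC1, was above it, against 9.03% of all genes, and none was below -0.5, against 14.3%. These shares of all genes depend on depth. With a minimum of 50 counts, 4.64% of genes were above 0.5 and 9.31% below -0.5. Among protein-coding genes the shares were 5.58% and 9.87%. CHAC1, the 1 member past 0.5, had 91 counts in total, and 1 of 10 members is too few to set against such shares.

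**Figure D3:**
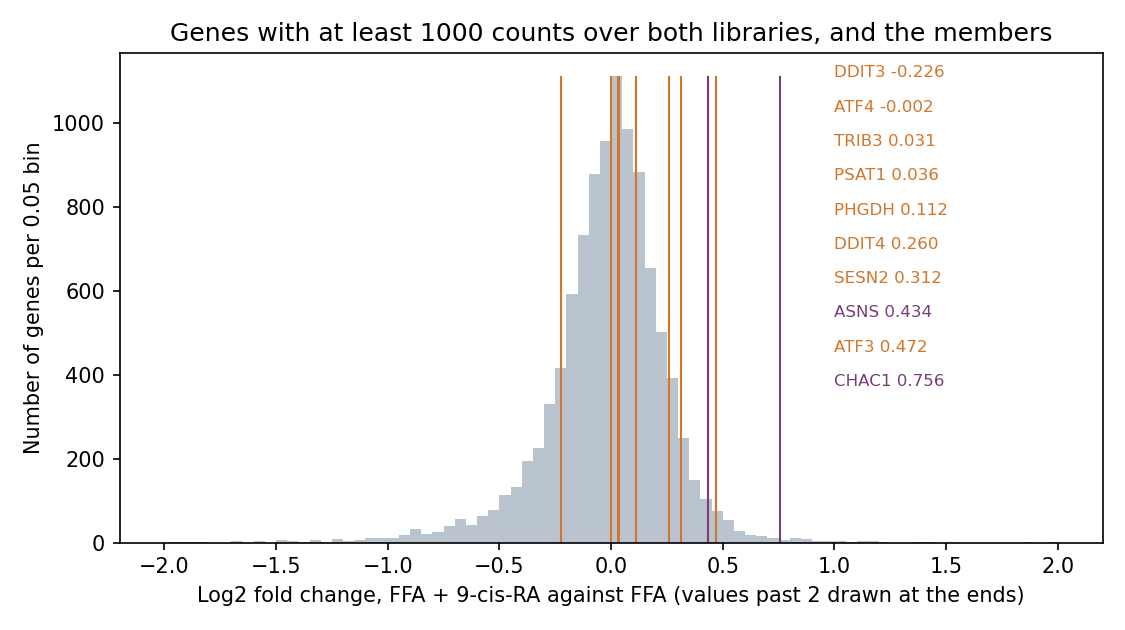
Histogram of the log2 fold change of the 10298 genes with 1000 counts or more in total, in bins of 0.05, with a vertical line for each of the 10 members (orange where the member is among these genes, purple for ASNS and CHAC1). ATF4, TRIB3 and PSAT1 sit at the peak near 0, SESN2 on the right shoulder, ATF3 farther out with 2.08% of these genes above it, and DDIT3 is the 1 member clearly to the left.

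The 3 members whose promoter windows held TGATGNAA, printed above, were also the 3 with the highest log2 fold changes, from 0.43 for ASNS to 0.76 for CHAC1. They were at the same time the 3 with the fewest counts. This was seen after the values were known and is given without a test. The 355 compared genes with the motif in a promoter window had a median of -0.018, against -0.0030 for the 12279 compared genes with a promoter in the table. Among the well-counted genes, these medians were 0.0074 and 0.011. A match does not show binding, and the part of ATF4 in these values was not tested.

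The upstream machinery of the response held genes on both sides of 0. Of 17 genes for eIF2 kinases, eIF2 and eIF2B subunits, phosphatase subunits and mitochondrial relays, 5 had an interval above 0 and 5 below 0, and the median was 0.043. Shares of this size are near those of the well-counted genes in general, 34.4% above and 34.7% below. The heme sensor kinase gene EIF2AK1 (HRI) was at 0.13 (95% interval 0.10 to 0.15) and EIF2AK2 (PKR), which senses double-stranded RNA, at -0.15 (-0.21 to -0.10). The intervals of the amino acid sensor kinase gene EIF2AK4 (GCN2), at 0.046 (-0.025 to 0.12), and of the ER stress kinase gene EIF2AK3 (PERK), at 0.097 (-0.0031 to 0.20), included 0. The highest were IMPACT, an inhibitor of GCN2 activation, at 0.39 and PPP1R15A (GADD34), the stress-induced eIF2 phosphatase subunit, at 0.20. The lowest were OMA1, the mitochondrial protease that relays mitochondrial stress, at -0.28 and EIF2S3, an eIF2 subunit gene, at -0.19. No gene of this list passed 0.5 in either direction.

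The bZIP partners and relatives of ATF4 ranged from -0.83 to 1.15. Of 17 compared, 9 had an interval above 0 and 3 below 0, against 34.4% and 34.7% of the well-counted genes, with a median of 0.083. FOS (573 and 1248 counts) was at 1.15 and JUN (6877 and 11034 counts) at 0.71, both subunits of the AP-1 factor. CEBPD (918 and 505 counts) was at -0.83 and MAF (2148 and 1449 counts) at -0.54. CEBPB, which pairs with ATF4, was at 0.24 (95% interval 0.18 to 0.30), and CEBPG, another partner, was at -0.0059 (-0.050 to 0.038).

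Other ATF4 target groups held genes on both sides of 0, and their counts are set against the 34.4% of well-counted genes with an interval above 0 and the 34.7% below. Of 13 amino acid and one-carbon synthesis genes, 5 had an interval above 0 and 5 below 0, with a median of 0.040. CTH, the last enzyme of cysteine synthesis, was at 0.43 and the mitochondrial folate enzyme gene MTHFD2 at 0.26. ASS1, a urea cycle enzyme gene, was at -0.77 (7614 and 4392 counts) and the proline synthesis gene PYCR1 at -0.31. Amino acid transporters had the highest median of the target groups, 0.22, with 6 of 10 above 0 and 3 below. The cystine transporter gene SLC7A11 stood at 0.45 (4804 and 6457 counts) and SLC1A4 at 0.31, while SLC43A1 was at -0.59 and SLC38A2 at -0.12. Of 12 tRNA synthetase genes, 7 were above 0 and 2 below, with a median of 0.057, from -0.071 for NARS1 and -0.040 for AARS1 to 0.26 for TARS1 and 0.35 for MARS1.

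Among 19 compared genes of stress outputs, 10 had an interval above 0 and 5 below 0, against the same 34.4% and 34.7%, with a median of 0.063. HMOX1, heme oxygenase, was the highest at 0.94 (7806 and 14703 counts), followed by the autophagy gene MAP1LC3B at 0.58. Both also respond to factors other than ATF4. NUPR1 was at -0.48 and BBC3, which encodes the death factor PUMA, at -0.31. The stress hormone gene GDF15, at 21403 and 23412 counts, was at 0.16. PMAIP1 had 0 counts in both libraries.

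Paralogs of the members lay apart from one another. Of 6 compared, 1 had an interval above 0 and 3 below 0, against 34.4% and 34.7%. SESN3, a relative of SESN2, had 137 and 298 counts and a log2 fold change of 1.14 (95% interval 0.85 to 1.45), whereas SESN1 was at -0.22. TRIB2, a relative of TRIB3, had 7521 and 4148 counts and was at -0.83 (95% interval -0.89 to -0.78). ASNSD1 was at 0.063, with an interval that included 0. DDIT4L had 0 counts in both libraries.

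The chaperone genes of the ATF6 and XBP1 branches of the unfolded protein response, which run beside the PERK and ATF4 branch, had more genes below 0 than above it. Of 18 genes, 11 had an interval below 0 and 6 above 0, against 34.7% and 34.4% of the well-counted genes, and the median was -0.10. HSP90B1, an abundant ER chaperone gene, had 65358 and 48294 counts and was at -0.41, and MANF was at -0.44. The ER degradation genes EDEM1 at 0.23 and SEL1L at 0.20 were the highest. The median was -0.055 with total-count scaling and -0.023 with the trend on mean expression removed.

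**Figure D4:**
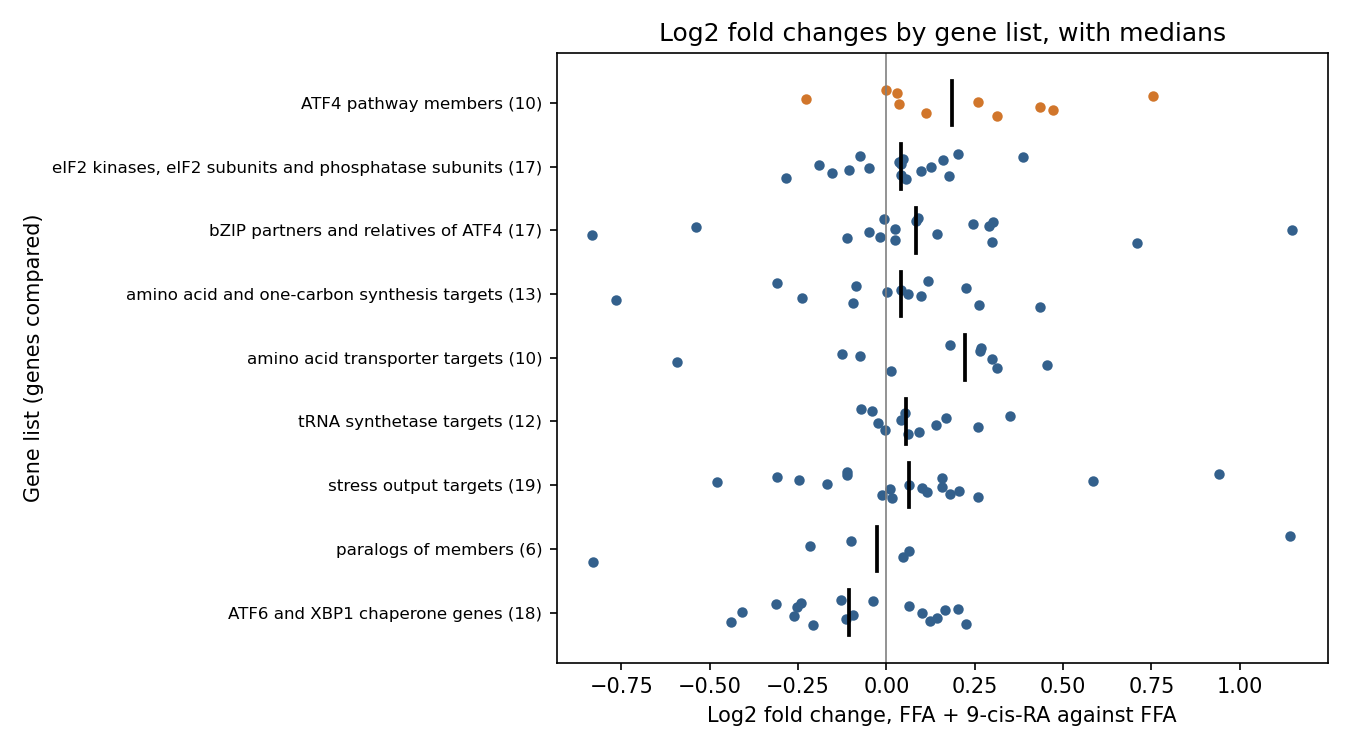
Log2 fold change of each compared gene (points) in the 10 members (orange) and in 8 further gene lists (blue), with the median of each list as a black bar and the number of genes compared in parentheses. Medians run from -0.10 for the ATF6 and XBP1 chaperone genes to 0.22 for amino acid transporter targets, with the 10 members at 0.19, and points lie on both sides of 0 in each list.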

How the data were processed

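Each deposited table holds raw counts of fragments per gene, which the authors made with featureCounts version 2.0.1. Per the file headers, both mates had to map, the fragment length was checked and the strand setting was 2 (reverse). Fragments with several mapping places or several overlapping genes were left out. The build is GRCh38 per the labels. The aligner and annotation release were not given in the sources used here. Libraries were scaled by DESeq2 size factors (version 1.42.0, R version 4.3.3). Exact 95% intervals are Clopper-Pearson intervals of the share of a gene's counts (scipy 1.17.1, Python 3.11.15) and cover counting error only. Intervals of ratios to ATF4 used the normal approximation. Steps were tested on simulated data. Coding bases and gene types came from GENCODE v29, in which 58516 of 60623 entries had an identifier.

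The comparison covered genes that reached 10 counts in total. The study names DESeq2 with adjusted p-values, for which 1 library per group leaves no replicate error. The members and lists were chosen with earlier results of these data known. Named genes were all members, the label check and, from each list, the 2 highest and 2 lowest with at least 100 counts. Others were chosen after their values were seen. The alternatives tried were scaling by TMM (edgeR version 4.0.16) or by totals, a pseudocount of 0.1 or 5, a count minimum of 50 or none, protein-coding genes only, and removal of loess trends (span 0.3, statsmodels 0.14.6) on gene length or mean expression.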

Additional observations from a re-analysis of the deposited data

How the results depend on the processing

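No paired analysis was possible because each group had 1 library. The alternatives kept the direction of every member in 90 recomputed values except for ATF4. Its main value of -0.0017 had an interval that included 0, and its highest value under the alternatives was 0.074. Of the 90 values, 14 fell outside the main interval of the gene, among them DDIT3 at -0.11 with the length trend removed. The member median was 0.24 with total-count scaling and with the length trend removed, and 2 members then passed 0.5 in place of 1. Of all genes compared, 10.1% and 10.2% were above 0.5 under these 2 alternatives, against 9.03% in the main setting. With total-count scaling, amino acid transporters had a median of 0.27, tRNA synthetases of 0.11 and chaperones of -0.055, and AARS1 went from -0.040 to 0.0091. With the expression trend removed, transporters were at 0.27 and chaperones at -0.023. Total-count scaling adds 0.049 to every value by construction. Other causes were not tested. CHAC1 had the fewest counts and the widest counting interval. Its value was 0.69 with a pseudocount of 5, which acts on low counts by construction, and 0.86 with the expression trend removed. No alternative put a member past 1 in either direction, or changed by over 1.5 times how many had an interval above or below 0. Members with an interval above 0 went from 8 to 9 with total-count scaling and with either trend removed. The gene added was ATF4. The split of all genes past 1 moved: 59.3% were below -1, against 70.2% with at least 50 counts and 39.8% without a minimum. The number above 1 was 689, against 341 with a pseudocount of 5, 3771 without a minimum, 270 among protein-coding genes and 153 with a minimum of 50. The number below -1 was 1002, against 594, 2493, 446 and 361 in the same order.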

Other observations

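The 10 genes together took 0.211% of all counts in FFA (exact 95% interval 0.210 to 0.212) and 0.226% in FFA + 9-cis-RA (0.225 to 0.227), and the 3 most abundant by counts, ATF4, TRIB3 and PSAT1, held 79.0% and 77.2% of these. Pseudogenes of ATF4, ASNS and PSAT1, 4 of each by symbol, are annotated elsewhere in the genome, and fragments that map equally to one were not counted. The pseudogene with the most counts, ATF4P3, had 118 and 109, against 40678 and 39858 for ATF4.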
